A study of Mus musculus with 12 samples.

Results

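The 43 genes described here encode the core machinery of the cell division cycle and of DNA replication, out of 48440 genes in the deposited tables. They were taken as the rows whose gene name matched a fixed list of cyclins, cyclin-dependent kinases (CDKs), CDK inhibitors and p53 targets, replication licensing factors, replication fork and nucleotide supply genes, kinetochore and mitotic exit genes, and the transcription factors of this programme. RNA was sequenced from the liver of male C57BL/6 mice aged 8 weeks fed chow in a cycle of 12 h light and 12 h dark. The groups were wild type (WT) and transgenic mice overexpressing E4BP4 in the liver (TG), sampled at ZT2 or ZT14 (ZT, zeitgeber time, is hours after lights on), with 3 libraries a group and 12 in all. The promoter that drove the transgene is not given in the labels, and no label says whether the libraries of a group came from separate animals, so every p-value reflects the spread of these libraries, which may be technical.

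A dividing cell passes from G1 into S phase when cyclin D with CDK4, then cyclin E with CDK2, release E2F factors from the retinoblastoma family. Licensing factors load the MCM helicase on replication origins, and ribonucleotide reductase supplies the deoxynucleotides. Cyclins A and B with CDK1 then drive mitosis, and the anaphase promoting complex with CDC20 ends it. In the adult liver nearly all hepatocytes rest outside the cycle and re-enter it after injury or partial removal of the liver, and the circadian clock is known to gate that entry, in part through the CDK1 inhibitory kinase WEE1. E4BP4, encoded by Nfil3, is a transcriptional repressor that binds D-box elements and belongs to the output arm of that clock.

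In promoters, the cell cycle programme is known to act through E2F sites at G1/S genes, and through CCAAT boxes with a cell cycle genes homology region (CHR) at G2/M genes. The RefSeq promoter table of build GRCm38.p6 held 34 of the 43 genes, in 38 windows. Motifs were searched on both strands in the 250 bases before each start site. CCAAT was found in 25 of the 34 genes (73.5%), against 33.8% of all 32851 promoters. One of the E2F words TTTGGCGC, TTTCGCGC, TTTCCCGC or TTTGGCGG was found in 7 genes (20.6%, against 1.96%), namely Cdc6, Cdc25a, Cdk1, Cdk2, Mcm5, Mcm6 and Mcm7. A CHR word, TTTGAA or TTCGAA, was found in 9 genes (26.5%, against 17.1%). These shares count genes, while the shares of all promoters count windows. Of the 38 windows, 68.4% held CCAAT, 18.4% an E2F word and 23.7% a CHR word. The D-box words TTATGTAA and TTACGTAA were found in 0 genes (0.931% of all promoters). The E-box CACGTG, bound by the core clock activators, was found in 1 gene, Cdk4 (6.02% of all promoters). TAGGTCA, bound by ROR and REV-ERB receptors, was found in Cdkn2c and Mcm2 (2.23% of all promoters). These matches describe letters, and no match says only that the letters are not in that window.

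Printed next are 150 bases upstream of the deposited gene body for 6 genes, chosen because they stand for the patterns in time given further on. Rrm2 (chr12:24708091-24708240, plus strand) and Ccne1 (chr7:38107535-38107684, minus strand) were higher at ZT14. Cdc20 (chr4:118437353-118437502, minus strand) and Plk1 (chr7:122159285-122159434, plus strand) were lower at ZT14. Top2a (chr11:99024190-99024339, minus strand) and Cdk1 (chr10:69352939-69353088, minus strand) were not called. All are GRCm38, read 5′ to 3′ on the strand of the gene, and capitals mark CCAAT, CHR and E2F words on either strand.
Rrm2: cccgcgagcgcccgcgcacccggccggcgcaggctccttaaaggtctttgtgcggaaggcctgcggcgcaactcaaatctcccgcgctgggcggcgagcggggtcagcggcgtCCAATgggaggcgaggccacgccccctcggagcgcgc
Ccne1: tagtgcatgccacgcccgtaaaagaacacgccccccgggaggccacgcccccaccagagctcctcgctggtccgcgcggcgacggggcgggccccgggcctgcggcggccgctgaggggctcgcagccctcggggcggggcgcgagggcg
Cdc20: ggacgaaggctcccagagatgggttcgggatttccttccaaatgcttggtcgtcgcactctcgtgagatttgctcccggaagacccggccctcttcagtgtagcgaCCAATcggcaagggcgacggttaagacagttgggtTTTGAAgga
Plk1: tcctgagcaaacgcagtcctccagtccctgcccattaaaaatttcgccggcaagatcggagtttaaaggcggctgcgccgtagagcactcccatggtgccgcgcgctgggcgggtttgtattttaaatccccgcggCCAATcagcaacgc
Top2a: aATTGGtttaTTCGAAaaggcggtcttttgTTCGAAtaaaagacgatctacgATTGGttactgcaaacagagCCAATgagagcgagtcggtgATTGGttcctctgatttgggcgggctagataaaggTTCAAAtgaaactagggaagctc
Cdk1: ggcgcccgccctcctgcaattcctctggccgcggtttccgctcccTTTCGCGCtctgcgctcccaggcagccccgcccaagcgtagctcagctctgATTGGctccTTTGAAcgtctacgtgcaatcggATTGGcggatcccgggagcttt
The capitals show 1 CCAAT box and no CHR or E2F word upstream of Rrm2, and none of these words upstream of Ccne1. Cdc20 carried a CHR word 18 bases before its start site and a CCAAT box 53 bases before it, while Plk1 carried a CCAAT box and no CHR word. Top2a carried several CCAAT boxes and CHR words, and the printed stretch of Cdk1 holds 2 CCAAT boxes, 1 CHR word and 1 E2F word. Outside the printed stretches, the searched windows held 1 more CCAAT box and 1 more CHR word for Cdk1, 1 more CCAAT box for Cdc20, and 2 more CCAAT boxes and 1 more CHR word for Top2a. No single word was found in all 4 of the genes called with time.

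The libraries held 16035121 to 23981021 reads assigned to genes. Hepatocyte markers (12 genes, Alb, Ttr and Apoa1 among them) summed to 82546 to 101253 CPM (counts scaled to library size) in each library. No gene in the hepatocyte, Kupffer cell, lymphocyte, neutrophil, erythroid, endothelial, stellate or cholangiocyte marker lists was at 0 in all 12 libraries. Nfil3 itself read 48.8, 29.4 and 37.6 CPM in WT and 71.1, 69.8 and 62.6 in TG at ZT2. At ZT14 it read 28.1, 40.4 and 24.6 in WT and 63.8, 93.9 and 77.9 in TG. Every TG library was above every WT library at its time. Averaged over both times, the log2 difference was 1.07 (SE 0.146, adjusted p = 0.00942), in edgeR's quasi-likelihood test with Benjamini-Hochberg adjustment over 15244 genes, which gave every adjusted p below unless DESeq2 is named. A gene is called when that adjusted p is below 0.05. By this measure Nfil3 was called between genotypes at ZT14 (log2 difference 1.34, SE 0.207, adjusted p = 0.0306). At ZT2 it was not called (0.81, SE 0.206, adjusted p = 0.359). Replicate 2 of TG at ZT2 and replicate 3 of TG at ZT14 differed most from the other libraries of their own groups. Chi-square per degree of freedom between read counts was 52.4 and 62.4 for the first and 75.8 and 90.9 for the second. Other pairs within a group gave 9.85 to 35.7. By the share of all genes with their highest value in a library, these 2 (11.1% and 10.3%) did not exceed TG replicate 1 at ZT14 (12.9%). Results that rest on this pair of outlying libraries are given with and without it.

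Levels of the cell cycle genes were compared with each other per transcript length. In reads scaled by transcript length and depth (RPKM, as deposited, mean of 12 libraries), Cdk4 was highest at 10.4, followed by Pcna, the sliding clamp of DNA polymerase, at 9.09, Ccng1, a p53 target, at 6.66, Spc24, a kinetochore subunit, at 6.12, and Ccnd1 (cyclin D1) at 5.78. Cdk4 shares 604 bases with Tspan31 on the opposite strand, which had 42992 reads against 8607 for Cdk4, so its level may include reads of that gene. Mki67, which encodes the proliferation antigen Ki-67, had a mean RPKM of 0.232, Top2a, the topoisomerase that untangles replicated DNA, 0.215, and Cdk1 0.306. The lowest were Ccnb1 (cyclin B1) at 0.0722 and Cdc6, a loader of the MCM helicase, at 0.0644. Ccnb1 had 1 to 19 reads a library, 76 in all, and did not pass the filter on low counts. The other 42 genes were tested.

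By time of day, 12 of the 42 genes were called between ZT14 and ZT2 averaged over both genotypes, 28.6% of them, where 22.5% of all genes tested were called. Of these, 6 rose at ZT14 (12% of all genes rose) and 6 fell (10.4% of all genes fell). The 6 ZT14 and 6 ZT2 libraries did not overlap in 4 genes (11.1% of all genes). Within WT, 3 genes rose and 1 fell (9.17% of all genes were called), and within TG 2 rose and 2 fell (12.2%). The count within WT dropped from 4 to 2 genes when WT replicate 1 at ZT2 was left out, and was 6 without WT replicate 2 at ZT14. The shares of all genes called in those fits are not given here. The times did not overlap in 14 of the 42 genes in WT (29.3% of all genes) and in 11 in TG (30%). The genes that rose encode G1/S cyclins, ribonucleotide reductase and a kinetochore subunit, and those that fell encode CDK inhibitors, mitotic regulators, an MCM subunit and an unconventional cyclin. The median log2 difference over the 42 genes was 0.05, against 0.00 over all genes. Because the RNA came from whole liver, fewer cells of a type and less RNA per cell cannot be told apart in any of these values.

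**Figure D1:**
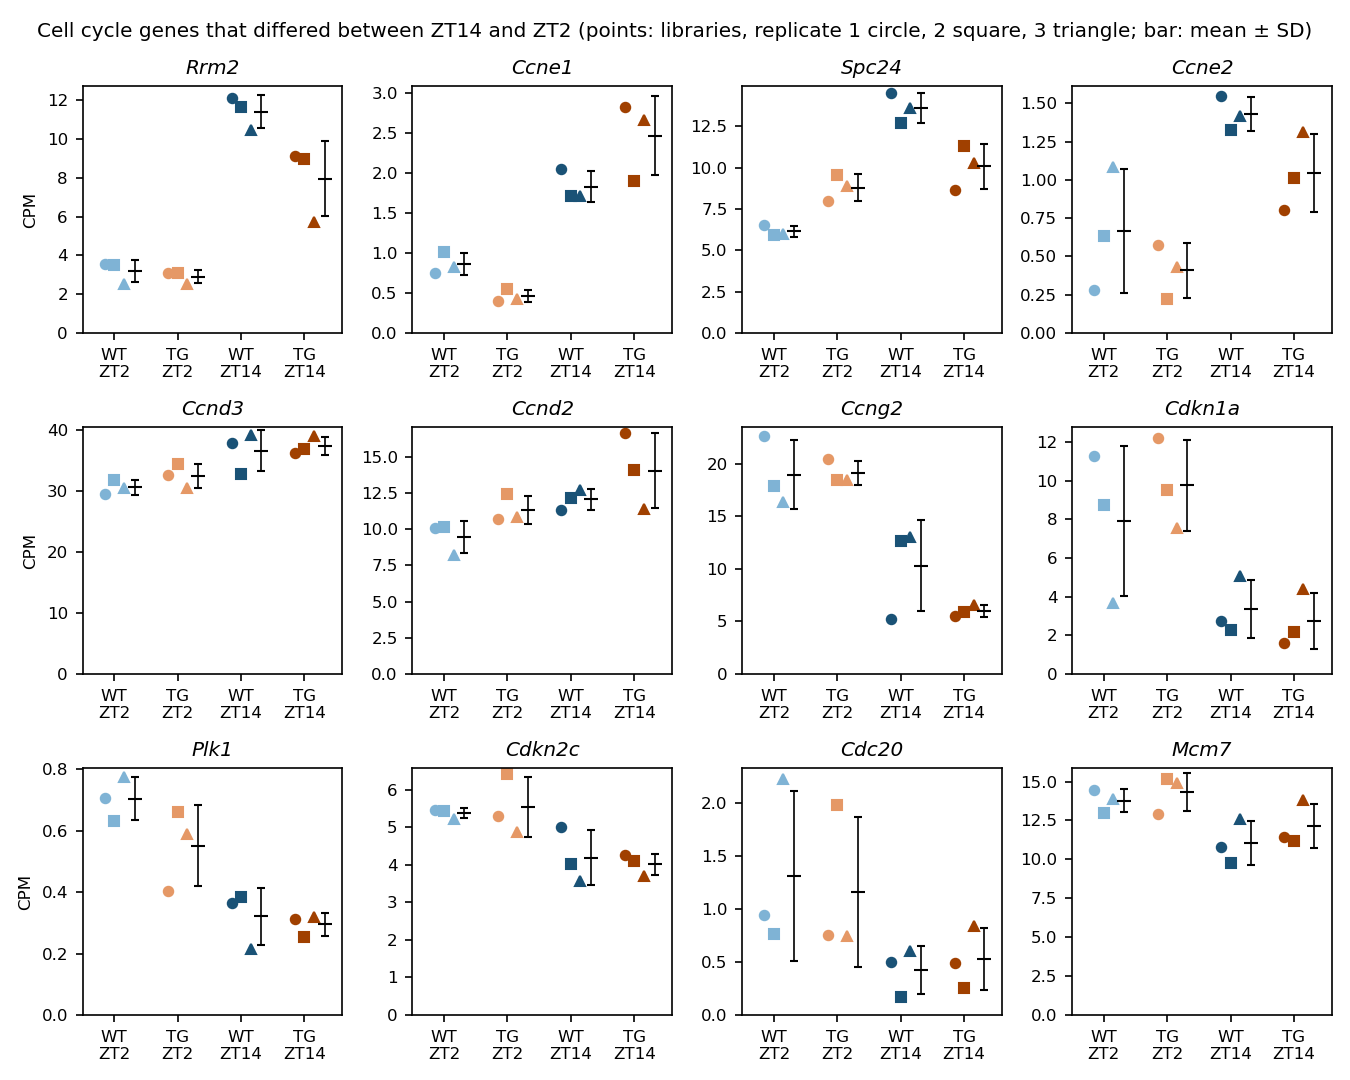
CPM of the 12 cell cycle genes called between ZT14 and ZT2 averaged over both genotypes, in every library (points, with circle, square and triangle for replicates 1, 2 and 3) with the mean and SD of each group of 3. Rrm2, Ccne1, Ccng2 and Plk1 showed no overlap between the 6 ZT2 and the 6 ZT14 libraries, while the other 8 overlapped.

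Of the 5 G1 cyclins and their kinases Cdk2 and Cdk4, 4 of 7 genes rose at ZT14, all of them cyclins, and 0 fell (12% of all genes rose). Ccne1 (cyclin E1, the partner of CDK2 at entry into S phase, chr7:38097984-38107534) read 0.753, 1.01 and 0.827 CPM in WT and 0.404, 0.55 and 0.428 in TG at ZT2. At ZT14 it read 2.05, 1.71 and 1.72 in WT and 2.82, 1.9 and 2.66 in TG. Every ZT14 library was above every ZT2 library in both genotypes. The log2 difference was 1.08 (SE 0.248, adjusted p = 0.0166) in WT, a 2.12-fold rise, and 2.40 (SE 0.267, adjusted p = 0.000155) in TG, a 5.28-fold rise. At ZT2 the 3 TG libraries lay below the 3 WT libraries, with a log2 difference of -0.89 (SE 0.295) that was not called (adjusted p = 0.539). The difference between the 2 time effects was 1.32 (SE 0.37) and was not called either (adjusted p = 0.687). The call in WT was lost when WT at ZT2 replicate 1 or replicate 3 or WT at ZT14 replicate 1 was left out (adjusted p = 0.0716, 0.0525 and 0.0708).

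Ccne2 (cyclin E2) rose by 1.23 on the log2 scale averaged over both genotypes (SE 0.308, adjusted p = 0.0129). It read 0.282 to 1.09 CPM in WT and 0.22 to 0.577 in TG at ZT2, and 1.32 to 1.55 in WT and 0.806 to 1.31 in TG at ZT14. Within each genotype the 2 times did not overlap. Its gene overlaps Ints8 on the opposite strand over 5622 bases, and the strand setting of the counting is not given, so the reads of the 2 genes may not be fully separated. The call was lost without the outlying pair (log2 difference 0.97).

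The D cyclins, which pair with CDK4, moved less. Ccnd3 (cyclin D3) rose by 0.23 (SE 0.0589, adjusted p = 0.0139), from 29.4 to 34.4 CPM over the 6 ZT2 libraries to 32.8 to 39.2 over the 6 ZT14 libraries, and the ranges overlapped. Its gene shares 361 bases with Bysl on the opposite strand, which had 5687 reads against 8658 for Ccnd3. Ccnd2 (cyclin D2) rose by 0.33 (SE 0.0993, adjusted p = 0.0318), from 8.22 to 12.4 CPM at ZT2 to 11.3 to 16.6 at ZT14. That call was lost in 7 of the 12 fits that left out a library. Ccnd1, Cdk2 and Cdk4 were not called in any contrast.

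Rrm2 (chr12:24708241-24714146), the regulated subunit of ribonucleotide reductase, read 3.57, 3.48 and 2.53 CPM in WT and 3.12, 3.08 and 2.51 in TG at ZT2. At ZT14 it read 12.1, 11.7 and 10.5 in WT and 9.14, 8.99 and 5.73 in TG. All ZT14 libraries stood above all ZT2 libraries, and at ZT14 all TG libraries stood below all WT libraries. Rrm2 rose by 1.83 (SE 0.198, adjusted p = 0.00016) in WT, 3.57-fold, and by 1.45 (SE 0.201, adjusted p = 0.000739) in TG, 2.73-fold. The difference between TG and WT at ZT14 was -0.52 (SE 0.182) and was not called (adjusted p = 0.626).

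Rrm2 was the only gene called of the 3 in its group (22.5% of all genes were called with time). Its partner subunit Rrm1 read 7.1 to 9.9 CPM over all 12 libraries and was not called. Pcna read 18.8 to 24.8 CPM at ZT2 and 19.9 to 26.7 at ZT14, with a log2 difference of 0.06 (SE 0.0849, adjusted p = 0.683); 76.5% of its reads mapped uniquely. None of the licensing genes Cdc6, Cdt1, Gmnn and Mcm2 to Mcm6 was called. Cdt1 shares 5114 bases with Gm20388 on the same strand, which had 252620 reads against 349 for Cdt1.

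Mcm7, a subunit of the replicative helicase, was the only 1 of 9 licensing genes called with time (22.5% of all genes were called). It fell by 0.28 (SE 0.0861, adjusted p = 0.0351). It read 12.9 to 15.2 CPM at ZT2 and 9.73 to 13.8 at ZT14, and the ranges overlapped. The call was lost in 8 of the 12 fits that left out a library, and the gene shares 64 bases with Cops6 and 421 with Ap4m1 on the opposite strand.

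In the group of CDK inhibitors and p53 targets, into which Ccng2 was also placed, 3 of 6 genes fell with time (10.4% of all genes fell), and 0 rose. Ccng2 (cyclin G2, an unconventional cyclin linked to cell cycle arrest, chr5:93267257-93276231) read 22.6, 17.9 and 16.3 CPM in WT and 20.4, 18.4 and 18.5 in TG at ZT2. The ZT14 values were 5.27, 12.7 and 13.0 in WT and 5.51, 5.91 and 6.6 in TG. Every ZT14 library was below every ZT2 library, and WT replicate 1 at ZT14 lay at the level of the TG libraries, apart from the other WT libraries. Ccng2 fell by 1.67 in TG (SE 0.262, adjusted p = 0.00172) and by 0.88 in WT (SE 0.252, adjusted p = 0.0486).

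The WT call for Ccng2 was close to the threshold. Without WT at ZT14 replicate 1 the difference was -0.56. The call was lost in 9 of the 12 fits that left out a library and in the fit of the 6 WT libraries alone (adjusted p = 0.112), and DESeq2 gave an adjusted p of 0.00943. Between genotypes at ZT14 the log2 difference was -0.78 (SE 0.263, adjusted p = 0.618). Without WT at ZT14 replicate 1 it was -1.09 (SE 0.143, adjusted p = 0.00969), the only member called between genotypes in any fit by edgeR.

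Cdkn1a (chr17:29090979-29100722) encodes p21, the CDK inhibitor induced by p53. It read 11.3, 8.74 and 3.67 CPM in WT and 12.2, 9.51 and 7.54 in TG at ZT2. Values at ZT14 were 2.73, 2.26 and 5.06 in WT and 1.61, 2.19 and 4.37 in TG. The times did not overlap in TG, and in WT they did, through replicate 3 at each time. It fell by 1.83 in TG (SE 0.443, adjusted p = 0.0184), 3.55-fold, and by 1.53 averaged over both genotypes (SE 0.311, adjusted p = 0.00377). The TG call was lost without TG at ZT2 replicate 1 or without TG at ZT14 replicate 1 or 2. In WT the difference was -1.24 (SE 0.438, adjusted p = 0.104) and was not called, though it was by DESeq2 (adjusted p = 0.0305).

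Cdkn2c, which encodes the CDK4 inhibitor p18, fell by 0.41 (SE 0.114, adjusted p = 0.0211), from 4.87 to 6.43 CPM at ZT2 to 3.56 to 5.0 at ZT14. The call was lost without WT at ZT14 replicate 3 and without the outlying pair. Cdkn1b (p27) read 20.7 to 24.2 CPM, Mdm2, the ligase that degrades p53, 26.7 to 33.1, and Ccng1 21.6 to 26.2 over all 12 libraries, and none of these 3 was called in any contrast.

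Of 9 kinetochore and mitotic genes, Spc24 rose with time and Plk1 and Cdc20 fell (12% of all genes rose and 10.4% fell). Plk1 (polo-like kinase 1, needed for mitotic entry) read 0.404 to 0.776 CPM over the 6 ZT2 libraries and 0.214 to 0.384 over the 6 ZT14 libraries. These did not overlap, and the gene fell by 1.01 (SE 0.249, adjusted p = 0.0118). Cdc20 (the activator of the anaphase promoting complex) read 0.75 to 2.22 CPM at ZT2 and 0.171 to 0.835 at ZT14, and fell by 1.37 (SE 0.423, adjusted p = 0.0345). Its highest values were WT replicate 3 at 2.22 and TG replicate 2 at 1.98, and the call was lost without either (log2 differences of -1.06 and -1.07) and in 4 of the other 10 fits that left out a library. Plk1 had 113 reads in all and Cdc20 had 205, so both rest on few reads. Cdc20 also shares 53 bases with Elovl1 on the opposite strand, which had 9576 reads.

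Some markers of other cells also differed with time of day. Averaged over both genotypes, 2 of 2 tested neutrophil markers, 3 of 12 endothelial, 1 of 12 cholangiocyte and 1 of 12 hepatocyte markers fell, and 1 of 7 erythroid and 1 of 12 hepatocyte markers rose. No Kupffer cell, lymphocyte or stellate marker was called. Over all genes tested, 10.4% fell and 12% rose in the same contrast. The 10 neutrophil genes summed to 1.39 to 4.24 CPM in WT and 0.588 to 2.36 in TG at ZT2, and to 0.299 to 0.864 in WT and 0.582 to 2.47 in TG at ZT14. In WT the times did not overlap, and in TG they did. The endothelial sum was 486 to 545 CPM over the 6 ZT2 libraries and 470 to 510 over the 6 ZT14 libraries. Their part in the time differences of the cell cycle genes was not tested.

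**Figure D2:**
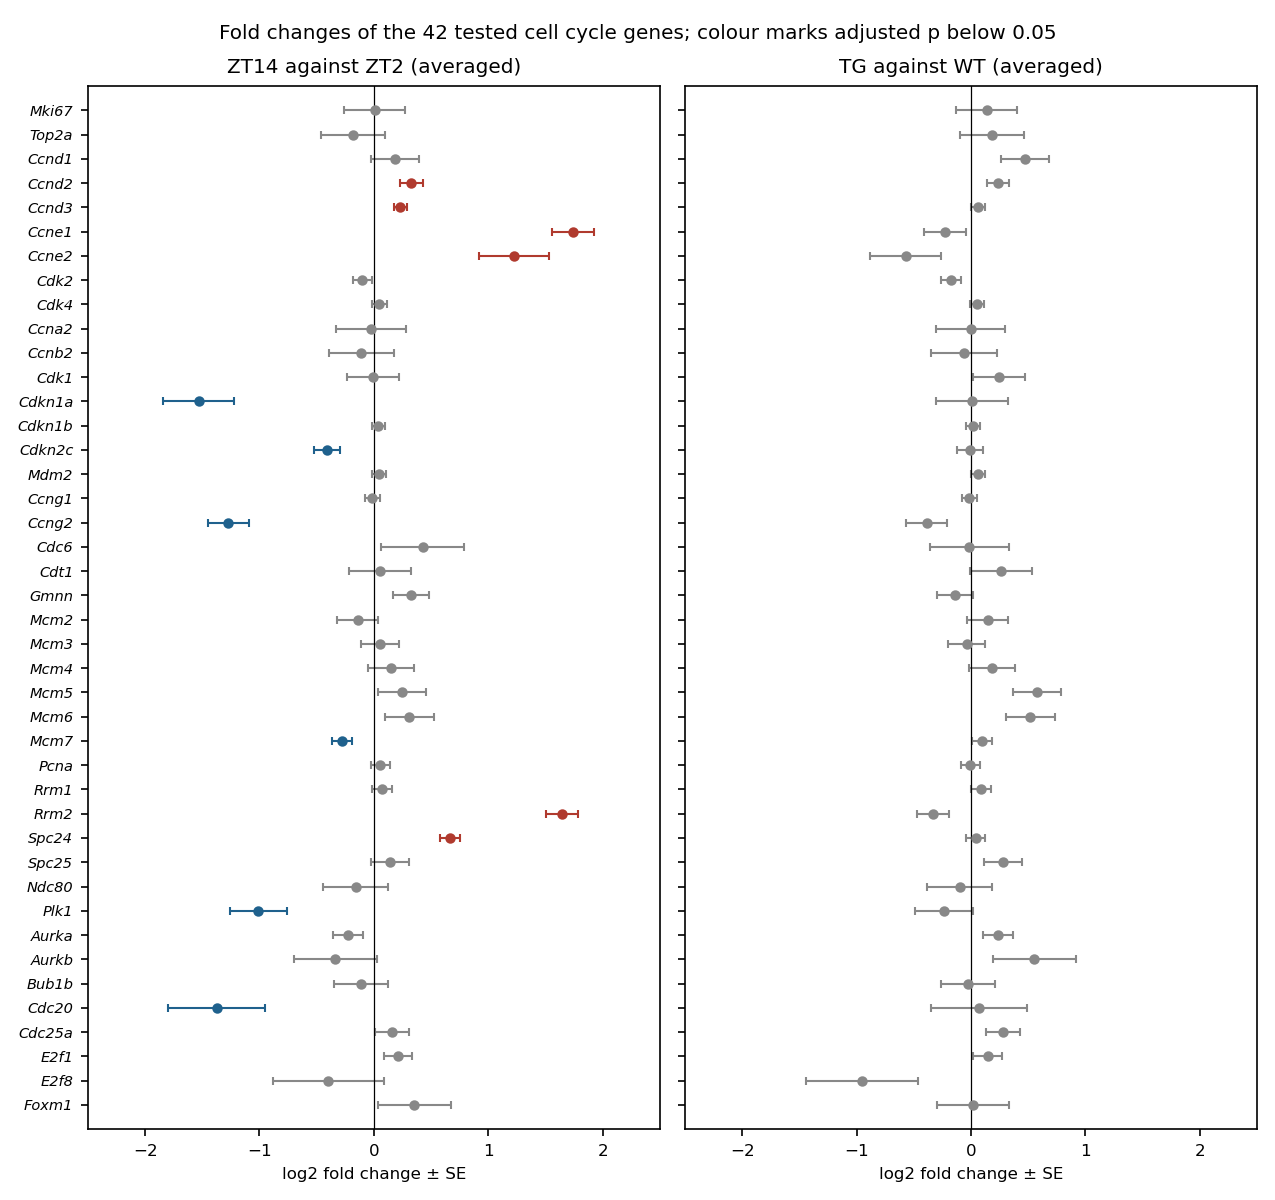
Log2 fold change with its SE for the 42 tested genes, between ZT14 and ZT2 averaged over both genotypes (left) and between TG and WT averaged over both times (right), with called genes in colour. At left 6 genes lie above and 6 below at an adjusted p below 0.05, and at right 0 genes do.

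Between genotypes, 0 of the 42 genes were called by edgeR at ZT2 (0.0722% of all genes were called), at ZT14 (0.0853%) or averaged over both times (0.144%), and DESeq2 called 0 in each of these. Without WT at ZT14 replicate 1, edgeR called 1 gene at ZT14, Ccng2, and the share of all genes called in that fit is not given here. At an unadjusted p below 0.05 there were 2 genes at ZT2 (7.56% of all genes), 5 at ZT14 (6.91%) and 5 averaged (8.82%). The TG and WT libraries did not overlap in 4 genes at ZT2 (12.1% of all genes) and in 6 at ZT14 (12.4%). The median log2 difference of the averaged contrast was 0.05 over the 42 genes and 0.00 over all genes. Few genes of any kind were called between genotypes.

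Spc24 (chr9:21755442-21760286), which with Spc25, Ndc80 and a further subunit forms the kinetochore complex that holds microtubules, had the smallest p between genotypes at both times. It read 6.54, 5.95 and 6.0 CPM in WT and 7.96, 9.56 and 8.88 in TG at ZT2. Its ZT14 values were 14.5, 12.7 and 13.6 in WT and 8.64, 11.3 and 10.3 in TG. All TG libraries were above WT at ZT2 and all were below WT at ZT14. The log2 difference was 0.51 at ZT2 (SE 0.126, adjusted p = 0.348) and -0.43 at ZT14 (SE 0.118, adjusted p = 0.501), and neither was called.

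The time effect on Spc24 was 1.14 in WT (SE 0.124, adjusted p = 0.00016), a 2.21-fold rise, and 0.20 in TG (SE 0.121, adjusted p = 0.343), which was not called. The difference between these was -0.95 (SE 0.173, unadjusted p = 0.000127, adjusted p = 0.283) by edgeR, and DESeq2 gave an adjusted p of 0.0099. Its partners Spc25 and Ndc80 read 3.24 to 5.88 and 0.278 to 0.695 CPM over all libraries, and neither was called in any contrast. The difference between the time effects was -0.01 for Spc25 (SE 0.335) and -0.56 for Ndc80 (SE 0.575), which had 98 reads in all. Neither was compared with Spc24 by a test.

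For the difference between the time effects, edgeR called 0 of the 42 genes (0.00656% of all genes by edgeR), and DESeq2 called 1, Spc24. The share of all genes called by DESeq2 is not given here. At an unadjusted p below 0.05 there were 4 (5.98% of all genes), among them Ccne1 and Bub1b. Bub1b, a kinase of the spindle checkpoint, read 0.753, 0.443 and 1.14 CPM in WT and 1.38, 0.989 and 1.44 in TG at ZT2, and 1.46, 1.02 and 1.12 in WT and 0.627, 0.675 and 0.835 in TG at ZT14. The TG libraries were all below WT at ZT14 and overlapped WT at ZT2. The difference between its time effects was -1.43 (SE 0.469, adjusted p = 0.74).

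The smallest p-values averaged over both times belonged to 2 helicase subunits. Mcm5 read 2.26, 1.65 and 2.84 CPM in WT and 2.6, 4.34 and 2.67 in TG at ZT2, and 2.91, 2.31 and 2.45 in WT and 2.87, 3.54 and 5.57 in TG at ZT14. Mcm6 read 3.39, 3.42 and 4.71 in WT and 3.69, 8.19 and 3.69 in TG at ZT2, and 4.23, 3.93 and 5.32 in WT and 6.36, 5.27 and 8.79 in TG at ZT14. In both genes the highest values were TG replicate 2 at ZT2 and TG replicate 3 at ZT14. The log2 difference was 0.57 for Mcm5 (SE 0.207, adjusted p = 0.48) and 0.52 for Mcm6 (SE 0.215, adjusted p = 0.516), and without that pair it was 0.27 and 0.16. Leaving out the TG libraries with the highest values lowers a difference of TG over WT in any case. No conclusion is drawn from such fits, here or for Ccnd1, Mki67, Top2a and Mcm2 below.

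Ccnd1, the D cyclin induced when hepatocytes enter the cycle, read 22.5, 14.6 and 29.9 CPM in WT and 25.7, 32.1 and 30.7 in TG at ZT2. Later, at ZT14, it read 30.3, 17.2 and 25.2 in WT and 32.2, 23.0 and 50.9 in TG. The genotypes overlapped at both times, and TG replicate 3 at ZT14 stood highest. The averaged log2 difference was 0.47 (SE 0.21, adjusted p = 0.544), and 0.26 without the outlying pair. Of its reads 65.4% mapped uniquely, and the gene shares 1771 bases with Oraov1 on the opposite strand. Ccnd2 had an averaged difference of 0.24 (SE 0.0993, adjusted p = 0.521).

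The proliferation markers were highest in the same TG library. Mki67 read 2.12, 1.39 and 3.0 CPM in WT and 1.44, 4.45 and 1.93 in TG at ZT2, and 2.64, 1.88 and 2.66 in WT and 2.64, 2.03 and 2.58 in TG at ZT14. Top2a read 2.07, 0.949 and 2.33 in WT and 1.62, 4.45 and 2.14 in TG at ZT2, and 2.91, 1.84 and 1.67 in WT and 1.52, 1.86 and 2.03 in TG at ZT14. TG replicate 2 at ZT2 was highest in both, and the other 11 libraries overlapped across groups. The averaged difference between TG and WT was 0.14 for Mki67 (SE 0.268, adjusted p = 0.908) and 0.18 for Top2a (SE 0.28, adjusted p = 0.885), and without that library it turned to -0.18 and -0.09. Cdk1 read 0.76 to 1.7 CPM over all libraries, with a difference of 0.25 (SE 0.224, adjusted p = 0.774), and Mcm2 read 2.39 to 4.57, with 0.14 (SE 0.179, adjusted p = 0.844), which turned to -0.02 without the outlying pair. Ccna2 read 0.316 to 1.54, Ccnb2 0.555 to 1.71 and Aurkb 0.253 to 1.1, and none was called in any contrast. Ccna2, with 210 reads in all, shares 863 bases with Exosc9 on the opposite strand, which had 2515 reads. Of the Ccnb2 reads, 55.6% lay in introns.

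**Figure D3:**
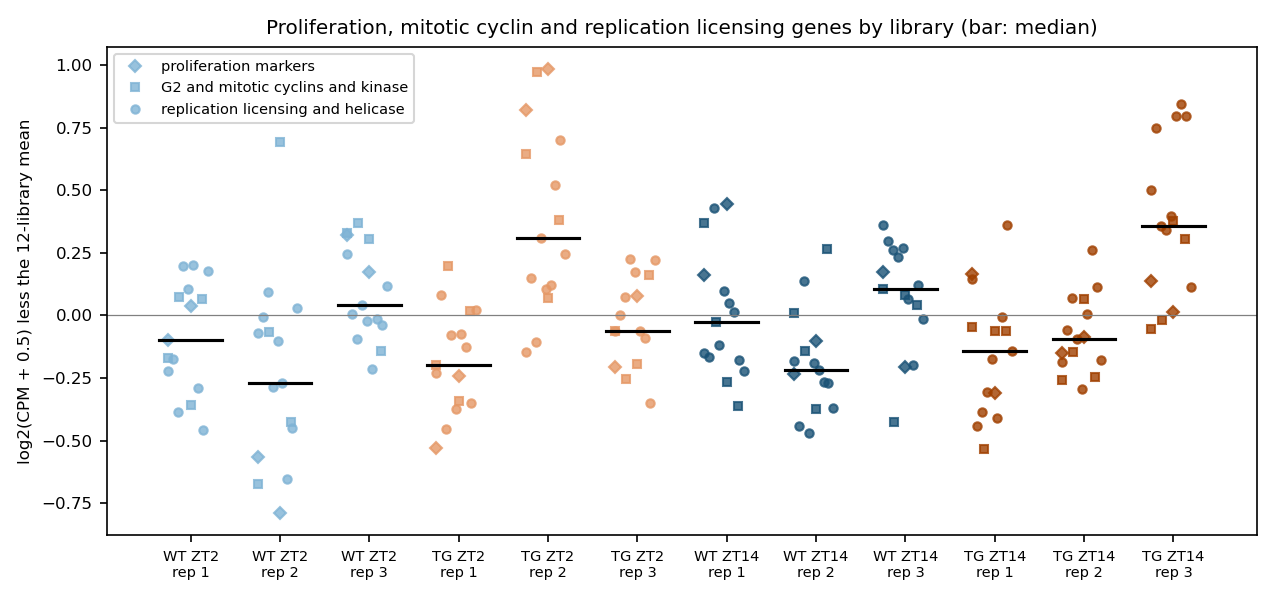
Level of the 15 proliferation marker, mitotic cyclin and kinase, and licensing genes in each library, as log2(CPM + 0.5) less the mean of the 12 libraries, with the median as a bar. The medians of the outlying pair, replicate 2 of TG at ZT2 and replicate 3 of TG at ZT14, lie at 0.31 and 0.36, and those of the other 10 libraries between -0.27 and 0.10.

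Across these 15 genes, the outlying TG libraries stood highest. The median relative level was 0.31 in replicate 2 of TG at ZT2 and 0.36 in replicate 3 of TG at ZT14, each with 13 of 15 genes above the mean of all libraries. It ran from -0.27 to 0.10 in the other 10 libraries. The ZT14 library was the highest of the 12 libraries in 12 of the 42 tested genes (10.3% of all genes were highest there), and the ZT2 library in 9 (11.1%).

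Markers of some other cells were also highest in the same 2 libraries. The erythroid sum (11 genes) was 597 CPM in the ZT2 library and 491 in the ZT14 library of that pair, against 301 to 395 in the other libraries. The Kupffer cell sum (12 genes) was 590 and 583 against 419 to 559, and the lymphocyte sum (12 genes) 25.3 and 22.6 against 14.9 to 21.2. The hepatocyte sum was 100356 and 101253 against 82546 to 93726. The endothelial (517 and 498 against 470 to 545), stellate (269 and 303 against 191 to 336), cholangiocyte (104 and 80.2 against 75.2 to 141) and neutrophil (2.36 and 2.47 against 0.299 to 4.24) sums lay inside the range of the other libraries. The part of these cells in the level of the cell cycle genes was not tested.

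Among the transcription factors, E2f1, an activator of S phase genes, read 2.43 to 4.02 CPM over all libraries. Its log2 difference was 0.14 between genotypes (SE 0.126, adjusted p = 0.765) and 0.21 between times (SE 0.126, adjusted p = 0.267). Foxm1, an activator of mitotic genes, read 0.253 to 1.03 CPM. Neither was called in any contrast.

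E2f8, a repressor of E2F targets linked to polyploid hepatocytes, is described because of its values, which were seen before it was chosen. It read 15.7 and 13.4 CPM in WT at ZT2 replicates 1 and 3 and 14.2 in WT at ZT14 replicate 2, against 1.67 to 6.2 in the other 9 libraries. The gene (chr7:48866429-48881596) overlaps Gm2788 on the opposite strand over 3639 bases. Gm2788 read 87.4, 97.9 and 52.9 CPM in the same 3 libraries and 6.4 to 40.1 in the other 9. Without the strand setting, reads of the 2 genes cannot be told apart, and E2f8 was not called in any contrast.

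**Figure D4:**
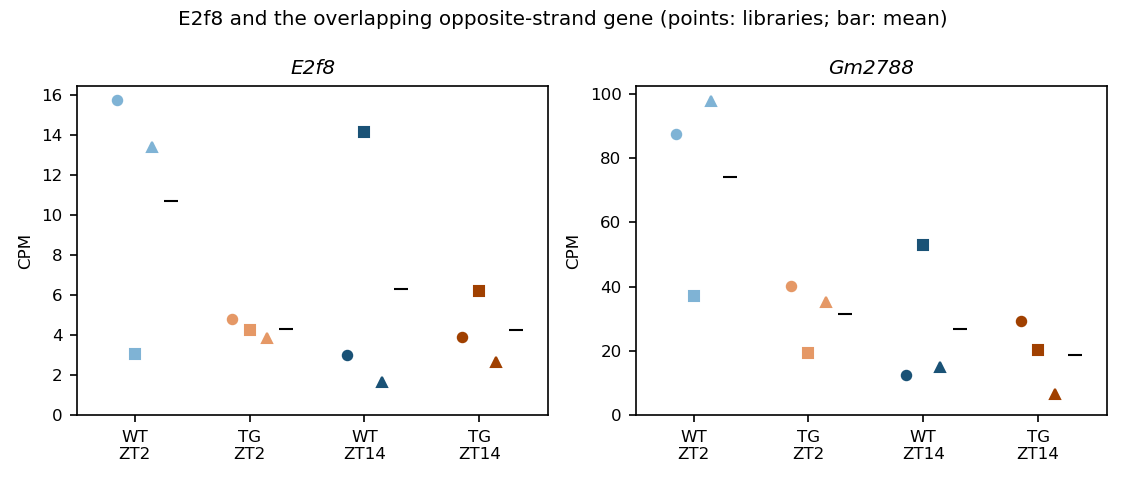
CPM of E2f8 and of Gm2788, which overlaps it on the opposite strand, in each library, with the mean of each group. The 3 libraries with E2f8 at 13.4 to 15.7 CPM, all WT, are also the 3 highest in Gm2788, at 52.9 to 97.9 CPM.

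Other genes of the same pathways, taken from further lists, gave the setting for these values. Of 43 tested genes of G1 and quiescence, 6 rose and 7 fell between ZT2 and ZT14 averaged over both genotypes, 30.2% of them called against 22.5% of all genes. Wee1, the clock-controlled kinase that holds CDK1 inactive, read 0.88 to 1.96 CPM over the 6 ZT2 libraries and 6.84 to 16.4 over the 6 ZT14 libraries, without overlap. It rose by 3.56 in WT (SE 0.291, adjusted p = 1.94e-05), 11.8-fold, and by 2.71 in TG (SE 0.284, adjusted p = 0.000115). Ccni (cyclin I) fell by 0.48, Max, the partner of MYC, rose by 0.41, and Tfdp2, a partner of E2F, fell by 0.41.

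Of 42 tested genes of replication, 3 rose and 3 fell with time, 14.3% of them called against 22.5% of all genes. Tk1, the thymidine kinase that supplies the same nucleotide pool as Rrm2, read 14.5 to 27.3 CPM at ZT2 and 28.7 to 43.2 at ZT14, without overlap, and rose by 0.93 (SE 0.112, adjusted p = 9.87e-05). Rfc1 and Rfc3, subunits of the clamp loader, fell by 0.30 and 0.70, and Gins3, of the replicative helicase, rose by 0.68. Of 37 tested genes of mitosis, 0 rose and 5 fell, 13.5% of them called against 22.5% of all genes. Over all genes, 12% rose and 10.4% fell. The smallest p-values were those of Nek2 (-1.11), Kif20a (-1.07), Cenpa (-0.73) and Cenpe (-1.11). Nek2, a centrosome kinase, read 3.57 to 5.44 CPM at ZT2 and 1.29 to 3.02 at ZT14, without overlap.

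Of 28 tested p53 targets, 4 rose and 2 fell with time, 21.4% of them called against 22.5% of all genes. The smallest p-values were those of Tigar (0.62), Ei24 (-0.31), Trp53inp2 (0.66) and Trp53 itself (-0.31). Between genotypes 1 gene of the 4 lists was called, in the averaged contrast, where 0.144% of all genes were called. Plk2, a polo-like kinase induced by p53, read 10.3, 11.7 and 9.77 CPM in WT and 17.0, 16.9 and 18.8 in TG at ZT2, and 17.4, 12.8 and 14.5 in WT and 21.1, 18.5 and 23.4 in TG at ZT14. Every TG library was above every WT library at its time, and the log2 difference was 0.61 (SE 0.0905, adjusted p = 0.0179).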

How the data were processed

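Poly(A) RNA of 12 liver samples was sequenced. The authors deposited, per sample, counts of gene, exon, intron and uniquely mapped reads and RPKM values, per the file headers. The builds mm10 and GRCm38 are named per the submitters' processing notes, while the aligner, and whether counting used strand, were not given in the sources used here. Deposited RPKM values were used only to order genes by level. Deposited counts of total gene reads entered edgeR 4.0.16 (R 4.3.3), where filterByExpr (minimum count 10, minimum total 15) left 15244 genes. Libraries of 16035121 to 23981021 reads were scaled by TMM, also for CPM, and 1 quasi-likelihood model covered 4 groups of 3. SE was derived from the F statistic. P-values were adjusted by Benjamini-Hochberg over all genes tested. The code was tested on simulated data. Alternatives were DESeq2 1.42.0, other size factors, no filter, uniquely mapped or exon reads, a replicate block, the compared libraries alone and leaving out libraries.

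The cell cycle genes and lists were chosen with earlier results of these data known. Values in each library, or for some genes only their ranges, are given for 3 kinds of gene. These are genes called in any contrast, the 3 with the smallest p in each, and a fixed set standing for each role (Mki67, Top2a, Ccnd1, Cdk1, Cdkn1a, Ccng2, Mcm2, Pcna and E2f1). From each further list, up to 4 called genes with the smallest p were named for the averaged contrasts, and Wee1 as a known clock output. The values of E2f8 and the TAGGTCA motif were added after the data were seen. Promoter sequences are RefSeq's, build GRCm38.p6, with 9 of the 43 genes unmatched, Spc24 among them.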

Additional observations from a re-analysis of the deposited data

Results flagged for a closer look

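Spc24 was singled out because every TG library lay above every WT library at ZT2 and below every WT library at ZT14. The difference between the 2 genotype effects was -0.95 on the log2 scale (SE 0.173, unadjusted p = 0.000127) and was not called over all genes by edgeR's quasi-likelihood test (adjusted p = 0.283). It ran from -1.04 to -0.85 when each library was left out in turn. DESeq2 called it, with an adjusted p of 0.0099.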

How the results depend on the processing

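Of the 7 counts of called genes, those between genotypes at ZT2 and averaged, and with time in TG and averaged, stayed within 1.5 times under every setting run. Leaving out a library gave 0 to 1 genes between genotypes at ZT14, the 1 being Ccng2 without WT at ZT14 replicate 1 (-1.09), and 2 to 6 genes with time in WT, with 2 left without WT at ZT2 replicate 1, which lost Ccng2 and Ccne1, and 6 without WT at ZT14 replicate 2. DESeq2 gave 1 gene, Spc24, for the difference between time effects. The shares of all genes called in these other fits are not given here. Mki67 between genotypes ran from -0.18 to 0.29 and Top2a from -0.091 to 0.32 when each library was left out. Without both outlying TG libraries they were -0.20 and -0.14, and Mcm2 was -0.019.

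The replicate numbers were not used to pair the libraries in the main fit. The correlation of same-numbered deviations ran from -0.03 to 0.18 between genotypes at ZT2, 0.05 to 0.06 at ZT14, -0.16 to -0.05 between times in WT and -0.30 to 0.17 in TG. Between genotypes the same number gave the highest correlation in 1 of 3 replicates at ZT2 and in 3 of 3 at ZT14. Between times it did so in 0 of 3 in each genotype. Under the replicate block the counts of called genes stayed within 1.5 times, and Ccng2 in WT had a log2 difference of -0.91 with an adjusted p of 0.0696. Other size factors moved the median of all genes by at most 0.01. Genes with few reads, such as Plk1, Cdc20 and Ccnb1, limit what the depth can show, and a difference that was not called does not show that the groups were alike.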
